A study of Homo sapiens with 4 samples.

Results

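MTRNR2L8, MTRNR2L2 and MTRNR2L1 are nuclear copies of the mitochondrial large ribosomal RNA gene that carry an open reading frame like that of humanin. The 3 genes were examined in 2 lists of RNA stretches enriched for 5-methylcytosine (m5C), a methylated RNA base. Their members are the listed peaks that overlapped a gene's window by 1 bp or more on its strand, and 4 of all 8919 peaks did so, 2 in each list. The genes were chosen from these same lists, in view of the positions and scores of the MTRNR2L8 and MTRNR2L2 peaks in both, so the presence, position and scores of these peaks are given as a description, with no test. All samples came from the human pancreatic cancer line PANC-1, an established cell line, after pretreatment with extracellular vesicles of cancer-associated fibroblasts, which are tumour stromal cells. The 2 immunoprecipitated (IP) and 2 input samples of total RNA form 2 replicates with 1 peak list each, and a peak is a stretch where antibody-bound RNA piled up. No group without vesicles is named in the labels, so the effect of the vesicles was not compared, and a single cell line was used. No label says that the replicates were separate cultures, and differences between them may be technical.

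Humanin is a short peptide encoded within the mitochondrial large ribosomal RNA gene and is known as a factor that protects cells from death. During evolution, pieces of mitochondrial DNA were copied into the nuclear genome, and the MTRNR2L genes are such pieces that still hold a humanin-like reading frame. On RNA, m5C is written by methyltransferases of the NSUN family and by DNMT2, on transfer RNA, ribosomal RNA and some messenger RNA. The reference gene table (RefSeq, GRCh38.p14) lists 13 genes with MTRNR2L symbols, and each of the 13 is classed there as a pseudogene. The other 10 were not analysed here, as no positions of the files' genome build, hg19, were given for them.

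MTRNR2L8 and MTRNR2L1 sit in different genomic surroundings, as the order of genes in RefSeq GRCh38.p14 shows. MTRNR2L8 lies between AMPD3, an AMP deaminase on the plus strand, and RNF141, a ring finger protein gene on the minus strand. MTRNR2L1 lies between the mitochondrial pseudogenes MTCYBP13 and MTND1P15, copies of the cytochrome b gene and of a NADH dehydrogenase subunit gene. The neighbours on both sides of this copy thus derive from mitochondrial DNA as well.

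MTRNR2L8 also hosts a microRNA gene, MIR4485, whose RefSeq sequence is shown because it is the sequence of a stretch of MTRNR2L8 that the tables hold. The hairpin measures 57 bases, on the minus strand at chr11:10508270-10508326 of GRCh38.p14, a build other than that of the peaks. The first line gives the hairpin with the mature microRNA in capitals (bases 31 to 50), and the second gives the mature microRNA, 20 bases long, with its seed (bases 2 to 8) in capitals.
MIR4485 hairpin: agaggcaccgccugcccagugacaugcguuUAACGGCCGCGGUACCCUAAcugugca
hsa-miR-4485-3p: uAACGGCCgcgguacccuaa
The hairpin holds 19 cytosines, the base that m5C modifies, and 7 of the mature microRNA's 20 bases are cytosines. A peak marks a stretch and names no single cytosine, so whether any of these bases carried m5C is unknown. The hairpin was not placed within the hg19 peaks, because positions were not converted between builds.

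A second microRNA gene lies in another copy of the family, MTRNR2L13, and is shown beside the first because their ends resemble each other over a few bases. Its mature sequence is given with the seed in capitals (bases 2 to 8).
hsa-miR-1973: aCCGUGCAaagguagcaua
The last 8 bases of the MIR4485 hairpin and the first 8 of hsa-miR-1973 are the same at 7 positions and differ by C3U, counted from the 5′ end of hsa-miR-1973, with its base first. This match was searched for after the sequences had been seen, allowed at most 1 mismatch and is too short to align the copies, and no value in the lists belongs to MTRNR2L13.

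MTRNR2L8 carried 1 peak in each replicate, both on its minus strand and both with a score of 3100. The score is the authors' own value, of unstated scale and not scaled between lists. Its hg19 window runs from 10529434 to 10530723 on chromosome 11, a length of 1290 bp. The replicate 1 peak covered 10530126 to 10530723, or 598 bp, which is 46.4% of the window, and it began at the window's 5′ end. The replicate 2 peak covered 10529434 to 10530723 and filled all 1290 bp. The windows of MTRNR2L8 and MTRNR2L2 equal the replicate 2 peaks at both ends. They may have been read from these peaks, or windows and peaks may both follow annotated gene bounds, which was not tested. A full window in replicate 2 is therefore no finding. Whether the authors cut peaks at gene bounds is not given, so widths and shared edges may depend on it. The 5′ edge was thus the same base in both lists, and the whole difference of 692 bp lay on the 3′ side.

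MTRNR2L2 likewise had 1 peak per replicate on its minus strand, scored 2912.43 in the replicate 1 list and 3100 in the replicate 2 list. Its window runs from 79945819 to 79946855 on chromosome 5, a length of 1037 bp. In replicate 1 the peak covered 79946257 to 79946599, or 343 bp, which is 33.1% of the window. The replicate 2 peak again filled the whole window, from 79945819 to 79946855. Here no edge was shared: replicate 2 reached 256 bp further on the 5′ side and 438 bp further on the 3′ side.

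MTRNR2L1 had no listed peak in either replicate. Its window of 1555 bp, from 22022437 to 22023991 on the plus strand of chromosome 17, is the longest of the 3, and it held no peak on the other strand either. Neither did the windows of MTRNR2L8 and MTRNR2L2. In all, listed peaks covered 941 bp of the 3882 bp of the windows in replicate 1 and 2327 bp in replicate 2. A window without a listed peak is not a measurement of absent m5C, since the lists give no read counts and a transcript too scarce to be called would look the same.

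**Figure D1:**
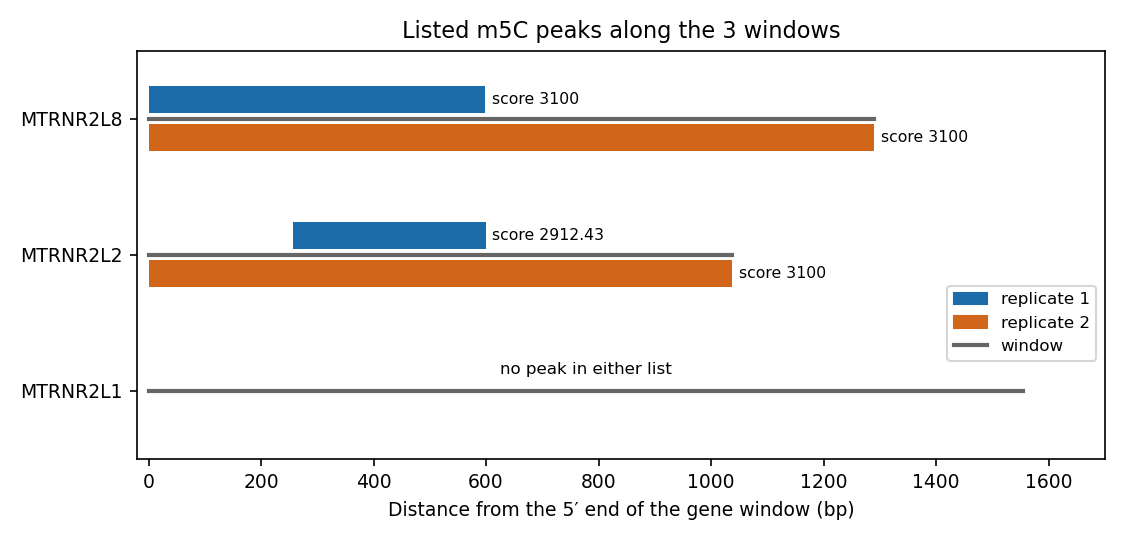
Listed peaks along the 3 gene windows, drawn from each window's 5′ end in bp; blue bars are replicate 1 peaks, orange bars are replicate 2 peaks, grey lines are the windows, and the score stands beside each bar. Replicate 2 peaks fill the MTRNR2L8 and MTRNR2L2 windows, replicate 1 peaks cover 598 and 343 bp of them, and MTRNR2L1 is empty.

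Measured from the 5′ end of the windows, with the first base counted as 1, the replicate 1 peaks spanned bases 1 to 598 of MTRNR2L8 and bases 257 to 599 of MTRNR2L2. Their 3′ ends were therefore 1 bp apart on this scale, whereas their 5′ ends were not. As the window edges equal those of the replicate 2 peaks, this scale may depend on that list. Whether the windows start at matching bases of the ribosomal RNA was not tested, as the sequences of the copies were not used here.

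The place of these scores within the list differed between the replicates. The genes were chosen with these scores in view, so a high rank is a description and no finding. In replicate 2 the score of 3100 was rare: 0.679% of its peaks scored 3100 or more, 36 had exactly that score, and 3 scored higher. Both the MTRNR2L8 and the MTRNR2L2 peak were among the 36, above 99.3% of the list and far from its median of 281.27. In replicate 1 the same score was the most frequent one, held by 1638 of 3177 peaks, and 52.1% of the list scored at or above it. The MTRNR2L8 peak shared that value, and 47.9% of replicate 1 peaks scored lower. The MTRNR2L2 peak, at 2912.43, lay below the list's median of 3100, with 1694 peaks above it and 46.6% of the list below it. A replicate 1 score therefore does not set either gene apart from the bulk of that list. Above 3100 there were 17 replicate 1 peaks, up to 3228.29, and peaks tied at 3100 cannot be ranked against each other. Whether 3100 is a limit of the score is not given, so equal scores in both lists need not mean equal enrichment.

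Next to the other listed peaks, those of MTRNR2L8 were wide in both lists, and that of MTRNR2L2 mostly in replicate 2. The positions of these peaks, and so their widths, were in view when the genes were chosen, so their width ranks are a description only. Peaks of 1000 bp or more made up 0.557% of replicate 2, or 32 of 5742 peaks, and both genes' peaks were among them. Only 17 replicate 2 peaks were wider than that of MTRNR2L8 and 25 were wider than that of MTRNR2L2, against a median width of 141 bp. In replicate 1, where the median width was 167 bp, 23 peaks were wider than the 598 bp of MTRNR2L8 and 324 were wider than the 343 bp of MTRNR2L2. Just 4 replicate 2 peaks combined the score of 3100 with a width of 1000 bp or more, and MTRNR2L8 and MTRNR2L2 supplied 2 of them. As scores and positions were both known at the choice, the place of these 2 among the 4 is no finding. Each of the 4 overlapped a replicate 1 peak, which for MTRNR2L8 and MTRNR2L2 was known when they were chosen. Among all replicate 2 peaks, 16 of the 32 of 1000 bp or more and 16 of the 36 scored exactly 3100 did so.

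**Figure D2:**
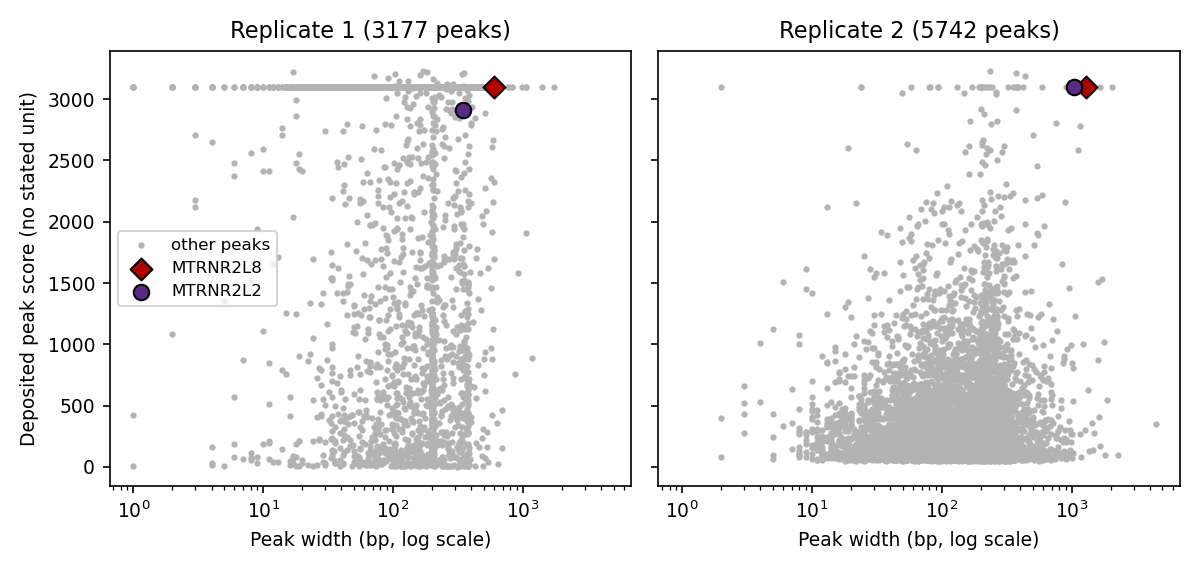
Deposited score (no stated unit) against peak width (bp, log scale) for every peak of replicate 1 (left) and replicate 2 (right), with MTRNR2L8 as a red diamond and MTRNR2L2 as a purple circle. In replicate 1 the MTRNR2L8 peak sits on the dense line of 1638 peaks at 3100, whereas in replicate 2 both genes lie in the thinly filled corner of wide peaks with that score.

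Overlap between replicates was not the rule for the lists as a whole. It was found for 13.6% of replicate 1 peaks and 7.49% of replicate 2 peaks, and for the 2 peaks of each list in the windows, which were chosen with that overlap known. The overlap measured 598 bp in MTRNR2L8 and 343 bp in MTRNR2L2, against a median of 144 bp over all 435 overlapping pairs, and 5 and 30 pairs had a longer one. In each gene 100% of the replicate 1 peak lay inside the wider replicate 2 peak, an arrangement found in 37.5% of all pairs. The overlap in each gene is therefore the width of its replicate 1 peak. At least 1 edge was shared in 52.2% of all pairs, and in MTRNR2L8 but not in MTRNR2L2.

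The extent of these peaks differed between the replicates. The replicate 2 peak was 2.16 times as wide as the replicate 1 peak in MTRNR2L8 and 3.02 times in MTRNR2L2. Over all pairs the median of this ratio was 1.07, with an interquartile range of 0.869 to 1.73, and 81 and 50 pairs had a higher ratio than MTRNR2L8 and MTRNR2L2. Both genes are among the 16 replicate 2 peaks of 1000 bp or more that overlapped a replicate 1 peak. Replicate 1 peaks covered 3.91% to 85.2% of each of those 16, with a median of 27.2%. The 46.4% of MTRNR2L8 and the 33.1% of MTRNR2L2 were both above that median, at ranks 13 and 9 from the lowest. Measured as the overlap over the combined length of both peaks, the agreement in extent was again 46.4% in MTRNR2L8 and 33.1% in MTRNR2L2. These values must equal the covered shares, since each replicate 1 peak lies wholly inside the replicate 2 peak. The median of this agreement was 54.1% over all pairs, and 189 and 138 of the 435 pairs had a lower value. By this measure MTRNR2L8 was near the middle of the pairs. The pair in MTRNR2L8 had centres 346 bp apart, and that in MTRNR2L2 had centres 91 bp apart. With 1 list per replicate, no error can be given for these widths.

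**Figure D3:**
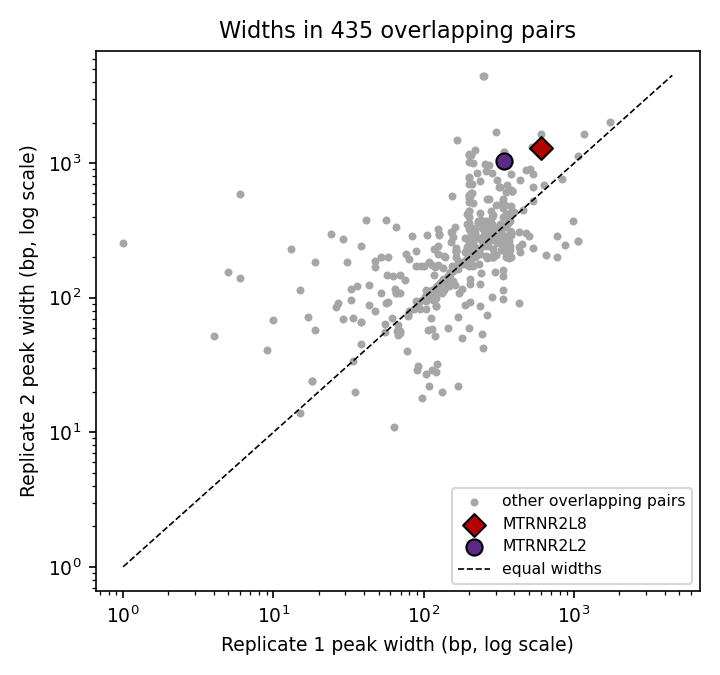
Width of the replicate 2 peak against that of the replicate 1 peak (bp, both axes log scale) in the 435 overlapping pairs; the dashed line marks equal widths. MTRNR2L8 (red diamond, 598 and 1290 bp) and MTRNR2L2 (purple circle, 343 and 1037 bp) both lie above the line.

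Likeness to other pairs was measured as the sum of the differences in score percentile over the 2 lists, with ties ordered by the difference in log2 overlap length. For MTRNR2L8, 5 pairs elsewhere had the same score of 3100 in both lists. By the log2 scale of overlap length, the first of them lay on the plus strand of chromosome 8, 1727 bp wide in replicate 1 and 2028 bp in replicate 2. The next were on the minus strand of chromosome 15 (194 bp in both lists) and the plus strand of chromosome 19 (89 and 94 bp), so the first was wider and the other 2 were far narrower than the MTRNR2L8 peaks. For MTRNR2L2 the nearest pair was one of chromosome 19, plus strand, at 39936481 to 39936605 in replicate 1, with scores of 2622.52 and 3100 and widths of 125 and 322 bp. It was followed by a pair on the same strand of chromosome 19 from 10982253 to 10982470, scored 2840.62 and 1852.35, and by one on the minus strand of chromosome 8, scored 2031.98 and 3100. Likeness over 2 lists is a description only, and the lists name no gene for these pairs.

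The MTRNR2L2 peaks had no close neighbour in either list, whereas MTRNR2L8 had one nearby in replicate 2. Around MTRNR2L8, the nearest other peak of replicate 1 lay 57.1 kb below the window, on the plus strand, with a score of 3100. In replicate 2 the nearest was on the minus strand, 9.74 kb above the window from 10540465 to 10540688, with a score of 219.86. This was the closest peak outside any of the windows, and it was the only other replicate 2 peak within 100 kb. Around MTRNR2L2 neither list had another peak within 100 kb: the nearest were 582 kb away in replicate 1 and 136 kb away in replicate 2, both on the plus strand. Over all peaks the median distance to the nearest other peak was 76.2 kb in replicate 1 and 40.3 kb in replicate 2. Counted from the peak and not from the window, 84.7% of replicate 1 peaks and 73.5% of replicate 2 peaks had a nearer neighbour than the MTRNR2L2 peak. For MTRNR2L8 the shares were 45.6% and 25.8%.

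MTRNR2L1 lay in a long stretch without listed peaks. The flanking peaks were 742 kb below and 3.61 Mb above the window in replicate 1, and 703 kb below and 4.66 Mb above it in replicate 2. The stretch between them measured 4.36 Mb and 5.37 Mb. How much of it holds sequence on which reads could be placed was not examined. Peak names carry a number that increases along each chromosome, and numbers missing from a list were read as peaks that were numbered but not listed. This reading was not tested. Numbers ran up to 35902 in replicate 1, with 3177 listed peaks, and to 123960 in replicate 2, with 5742. Most numbers were thus missing in each list as a whole. Between the peaks that flank MTRNR2L1, 38 numbers were missing in replicate 1 and 113 in replicate 2. On this reading the stretch held numbered peaks in both replicates that did not reach the lists. Their positions are not given, so whether any of them lay in MTRNR2L1 is unknown. Between the peaks on either side of MTRNR2L8, 38 and 54 numbers were missing, over 1.83 and 0.701 Mb. Around MTRNR2L2 22 and 26 were missing, over 1.18 and 0.572 Mb. As the stretches differ in length, these counts cannot be compared directly between the genes.

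**Figure D4:**
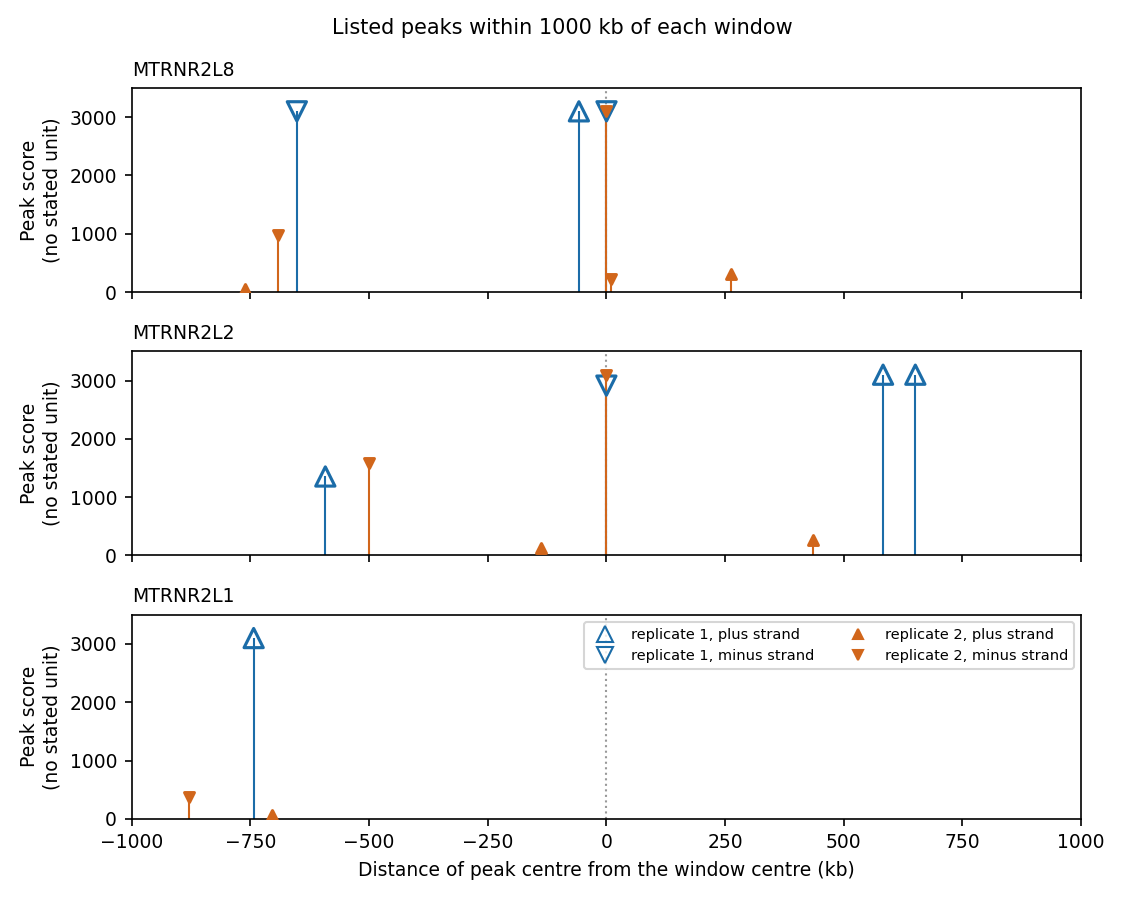
Score (no stated unit) of each listed peak within 1000 kb of the 3 window centres against the distance of its centre in kb; open blue symbols are replicate 1, filled orange symbols replicate 2, and triangles point up for the plus strand and down for the minus strand. Peaks of both replicates meet at the centre of MTRNR2L8 and MTRNR2L2, and the nearest to the MTRNR2L1 window lies 703 kb away.

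The mitochondrial chromosome, from whose DNA these genes were copied, had 0 peaks among the 3177 of replicate 1 and 0 among the 5742 of replicate 2. Both lists held peaks of 24 chromosomes, all of them nuclear. Whether the mitochondrial chromosome was part of the authors' search is not given in the sources used here, and the labels call the lists mRNA lists. The nuclear copies and the mitochondrial RNA are close in sequence, and how reads that fit several copies were handled is likewise not given. From which copy the RNA under the MTRNR2L8 and MTRNR2L2 peaks came was not tested, and the gene names here stand for positions.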

How the data were processed

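The deposited files are 2 peak lists with 6 columns (chromosome, start, end, peak name, score, strand), and each is named in the labels of 1 IP and 1 input sample of the same number. Per the submitters' processing notes, the tool cutadapt 1.9.3, which trims reads, and the build hg19 were used. Peak names begin with MACS, a peak caller. Aligner, annotation, thresholds and the treatment of reads with several matches are unknown (not given in the sources used), and each could change which copy of a sequence received a peak. The score is the authors' deposited value, and no deposited value is a count, so depth is unknown. Starts were read as 0-based and are printed 1-based.

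Overlaps (1 bp or more, same strand) were found with pandas 2.3.3 and numpy 2.4.6 (Python 3.11.15) in code tested on simulated data, and bedtools 2.31.1 gave the same number, 435. Named are the 3 genes, the nearest peak on each side and the 3 most alike pairs per gene. The genes, windows and rules were chosen with earlier results of these data known. MicroRNA and gene names came from RefSeq tables of GRCh38.p14, in which 3 of 3 symbols were found, and 0 of 3 had a promoter entry. The genes around MTRNR2L2 are not reported here. No test was run. Other overlap rules, wider windows, either strand, a score filter and leaving out a replicate were tried.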

Additional observations from a re-analysis of the deposited data

How the results depend on the processing

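The windows held 2 peaks per replicate also with windows widened by 1 kb and with either strand counted. Neither setting could add a peak, as the closest outside peak lay 9.74 kb away and no window held one on the other strand. Asking for 50% of a peak inside could not change the 2, as all 4 peaks lie wholly inside. Leaving out either replicate had to keep 2 windows with a peak (range 2 to 2), as each list has a peak in both MTRNR2L8 and MTRNR2L2. A filter at the median score of each list also kept 2 windows. That filter left 1 peak in replicate 1, as the MTRNR2L2 score of 2912.43 is under the median of 3100, and so 1 overlapping pair. A reciprocal overlap of 50% left 0 pairs, since replicate 1 peaks covered 46.4% and 33.1% of the replicate 2 peaks, and centres within 100 bp left 1 pair, that of MTRNR2L2. No paired analysis was possible because no result comes from a test and each list already joins the IP and input sample of its number. Without read counts, scarce and unmethylated transcripts cannot be told apart.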
